A study of Sus scrofa with 18 samples.

Results

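The regions described here are the H3K27ac peaks of day 15 pregnant circular muscle (GD15M_CM) that no other myometrium sample of the study shared. A peak was taken when it lay on chromosomes 1 to 18 or X, had a fold enrichment of at least 4 over the IgG control, and overlapped by not even 1 bp any H3K27ac peak of day 15 pregnant longitudinal muscle (GD15M_LM) or of circular muscle on day 15 of the estrous cycle (CD15M_CM). This held for 3577 of the 25160 GD15M_CM peaks of that strength (14.2%), out of 78855 GD15M_CM peaks on these chromosomes and 79877 in the whole list. The regions were chosen by their fold enrichment in GD15M_CM and by the lack of peaks in the other groups, so these values describe them and support nothing.

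All tissue came from the mesometrial side of the uterus of Yorkshire gilts, with the endometrium cut away before the muscle layers were separated. H3K27ac, H3K4me3 and an IgG control were profiled by CUT&Tag, in which an antibody-guided transposase cuts and tags the DNA around a histone mark, in 2 gilts of each group. The libraries of both gilts were pooled before peaks were called, so that 6 peak lists are available, each mark having 1 list per group. The lists therefore held no value per gilt, no test between groups was made here, and the depth of each gilt is unknown from the lists. The paper itself called differential H3K27ac regions with the program DiffBind. It reported far fewer of them between GD15M_CM and CD15M_CM than between GD15M_CM and GD15M_LM. Those results were not used to choose the regions, so a region is not a tested difference between groups. The intervals given are 95% Wilson intervals, which cover counting error only.

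H3K27ac is an acetyl group on histone H3 that marks active promoters and active enhancers, the distant elements that raise the transcription of a gene. H3K4me3 is a methyl mark concentrated at active promoters, so that an acetylated region without H3K4me3 is more often an enhancer than a promoter. The circular muscle is the inner layer of the myometrium and lies next to the endometrium, where glands, vessels and immune cells reside and where the conceptus attaches around day 15. The labelled tissue was checked on 7 smooth muscle genes. ACTA2, ACTG2, MYH11, TAGLN, CNN1, DES and MYOCD carried an H3K4me3 and an H3K27ac peak in all 3 groups, with H3K4me3 folds in GD15M_CM between 11.6 and 17.8.

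The regions were weak and narrow. Their fold enrichment had a median of 4.36, an interquartile range from 4.16 to 4.74 and a highest value of 8.57, and 86.2% of them were under a fold of 5. The 17577 GD15M_CM peaks that had a peak in both other groups, called shared peaks below, had a median fold of 5.08. The median length was 437 bp for the regions and 1450 bp for the shared peaks. The 3577 regions together covered 1840 kb. Just inside the threshold were 3 regions with a fold of 4.00, at LATS1, LOC100621792 and PNRC1. Just outside it were 3 peaks that also met no peak of the other groups and had a fold of 3.999, at LOC100516105, at RABEP1 and on chromosome 15. In all, 19091 GD15M_CM peaks under a fold of 4 overlapped no peak of the other groups, these 3 included.

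From a fold of 4 upward the share of GD15M_CM peaks without a counterpart became smaller as the fold rose. Under the threshold it was 34.2% of the peaks with a fold from 2 to 3 and 36.6% of those from 3 to 4. It was 23.8% of the peaks with a fold from 4 to 4.5, 17.7% from 4.5 to 5, 7.25% from 5 to 6 and 2.01% from 6 to 7. Only 7 of the 2157 peaks with a fold of 7 or more (0.325%) had none. The plot of the share by fold shows both the weaker peaks that the rule left out and the fall above the threshold. MACS2 divides the number of fragments over a peak by a local background that cannot fall under a minimum, so folds of weak peaks take repeated values. The 5 commonest folds of the regions, 4.16, 4.36, 4.55, 4.74 and 4.93, were spaced by 0.192 and together held 1169 regions (32.7%). The 5 commonest folds of the shared peaks held 3.15% of those peaks. The corresponding spacing of the 2 commonest values was 0.169 in peaks found in CD15M_CM only and 0.145 in peaks found in GD15M_LM only. Whether this spacing, which bears on the number of fragments behind a weak peak, moved the number of regions was not tested.

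**Figure D1:**
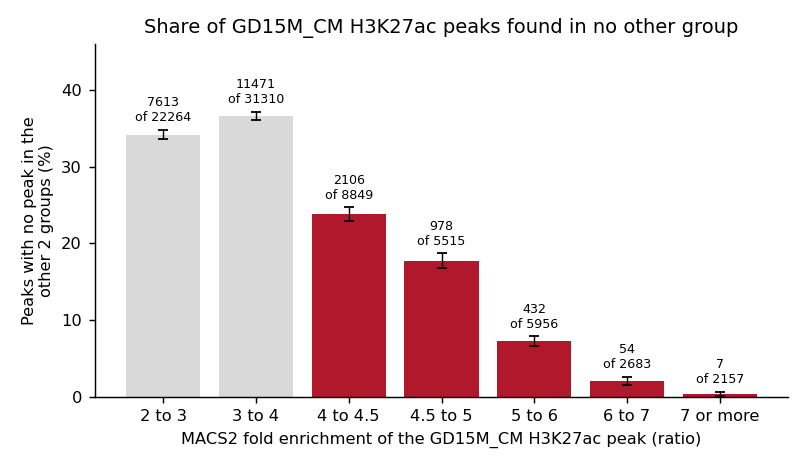
Share of GD15M_CM H3K27ac peaks that overlapped no H3K27ac peak of GD15M_LM or CD15M_CM (vertical axis, percent) in bins of MACS2 fold enrichment (horizontal axis). Red bars are the regions described here, grey bars lie under the threshold of 4, error bars are 95% Wilson intervals, and the share falls from 23.8% in the first red bar to 0.325% in the last.

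The same rule gave fewer regions in each other group. It found 839 of 24709 GD15M_LM peaks (3.40%) and 2714 of 27200 CD15M_CM peaks (9.98%), against 14.2% in GD15M_CM. The H3K27ac lists that these peaks could meet differed in length, with 57010 peaks in GD15M_LM, 79877 in GD15M_CM and 82037 in CD15M_CM. With the 57010 peaks of lowest p from each list, the rule gave 4650 GD15M_CM regions. The part that list length had in these shares was not tested. Most of the GD15M_CM peaks missing in 1 group only were missing in GD15M_LM, with 3705 peaks that had a counterpart in CD15M_CM alone and 301 that had one in GD15M_LM alone.

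Many regions lay close to acetylation of the other groups. The nearest GD15M_LM peak was at a median distance of 7078 bp and the nearest CD15M_CM peak at 2748 bp. A peak of either group lay within 1 kb of 1072 regions (29.97%, interval 28.5 to 31.5%), and no such peak lay within 10 kb of 856 regions (23.9%). A GD15M_CM peak that was not one of the regions lay within 1 kb of 1585 regions (44.3%), and of the 1072 regions close to a peak of another group 926 (86.4%) had one. Of the 856 remote regions 186 (21.7%) had such a GD15M_CM peak within 1 kb, and 220 (25.7%) had another region within the distance used below for clusters. The median fold was 4.36 in the remote and in the near regions. A fold of at least 5 was reached by 16.6% of the regions over 10 kb away (interval 14.2 to 19.2%) and by 12.8% of those within 1 kb (interval 10.9 to 14.9%).

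The regions lay mainly inside genes. Of the 3577 regions, 750 (21.0%) were within 3 kb of either end of a RefSeq gene, 2127 (59.5%) were elsewhere in a gene body and 700 (19.6%) were outside genes. The transcription start could not be told from the other end, because the gene table carried no strand. Shared peaks were at a gene end in 59.7% of cases, in a gene body in 30.7% and outside genes in 9.55%. The place of the regions was closer to that of the peaks found in only 1 other group. GD15M_LM-only peaks were at a gene end in 17.3% and outside genes in 27.3%, and CD15M_CM-only peaks in 16.4% and 21.6%. The median distance of a region to the nearest gene end was 12952 bp, against 727 bp for the shared peaks. Regions within 1 kb of a peak of another group were at a gene end in 33.6% of cases, those over 10 kb away in 11.4%. The shares of the 3 places, drawn for 4 sets of peaks, put the regions and the other group-only peaks on one side and the shared peaks on the other. GD15M_CM peaks with a counterpart in 1 other group, which are not drawn, were also nearer to the regions. Those with one in CD15M_CM alone were at a gene end in 25.3%, in a gene body in 59.2% and outside genes in 15.5%. For those with one in GD15M_LM alone these shares were 27.2%, 48.8% and 23.9%. The place was thus not particular to peaks of 1 group.

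**Figure D2:**
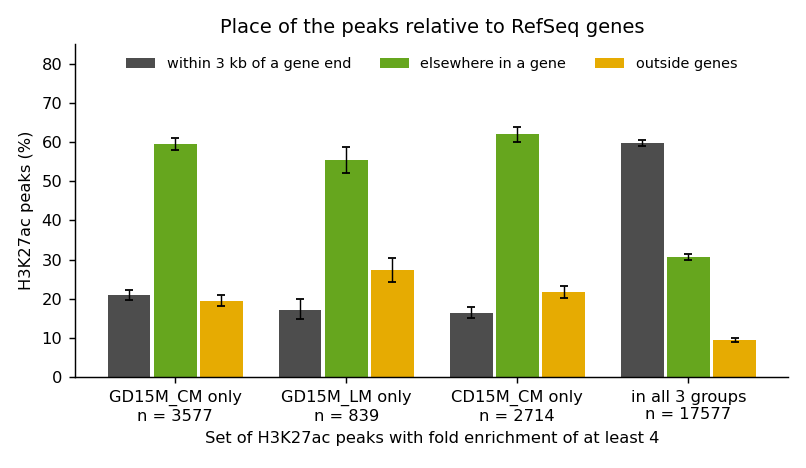
Percent of H3K27ac peaks (vertical axis) within 3 kb of a gene end, elsewhere in a gene body, or outside RefSeq genes, for the GD15M_CM-only regions, the peaks found only in GD15M_LM or CD15M_CM by the same rule, and the peaks in all 3 groups. Error bars are 95% Wilson intervals, and 59.5% of the regions were in gene bodies against 30.7% of the shared peaks.

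Every chromosome used held regions. Chromosome 1 had the most, with 357 of its 2386 GD15M_CM peaks, and chromosome X had 29 of 294. As a share of the GD15M_CM peaks of a chromosome, the regions made up between 9.86% on X (interval 6.96 to 13.8%) and 17.6% on chromosome 8 (interval 15.2 to 20.3%).

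Few of the regions carried H3K4me3. An H3K4me3 peak of GD15M_CM overlapped 670 regions (18.7%, interval 17.5 to 20.04%), one of CD15M_CM 487 regions (13.6%, interval 12.53 to 14.8%) and one of GD15M_LM 332 regions (9.28%, interval 8.37 to 10.3%). Over all 25160 GD15M_CM peaks with a fold of at least 4 these shares were 56.8%, 57.9% and 56.6%. No H3K4me3 peak of any group met 2811 regions (78.6%). The regions differed from the shared peaks also at the same strength and length. Among peaks with a fold from 4 to 4.5 and a length from 300 to 600 bp, H3K4me3 of GD15M_CM overlapped 16.99% of 1018 regions (interval 14.8 to 19.4%) and 30.8% of 850 shared peaks (interval 27.8 to 34.0%).

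H3K4me3 was not used to choose the regions, and it was found on them more often in GD15M_CM than in the other groups. The order GD15M_CM, CD15M_CM, GD15M_LM of the 3 shares held among regions at gene ends (52.0%, 43.9% and 33.3%), in gene bodies (9.69%, 5.78% and 3.39%) and outside genes (74, 35 and 10 of 700 regions). The peaks found only in GD15M_LM had the most H3K4me3 in GD15M_LM, at 15.0% against 7.03% in GD15M_CM and 9.89% in CD15M_CM. The peaks found only in CD15M_CM had the most in CD15M_CM, at 12.45% against 7.89% in GD15M_CM and 10.6% in GD15M_LM. On shared peaks H3K4me3 of GD15M_CM was the least frequent of the 3, with 70.9% against 74.5% in GD15M_LM and 73.4% in CD15M_CM. With the 2 gilts of a group pooled, a difference between gilts and a difference between groups cannot be told apart.

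**Figure D3:**
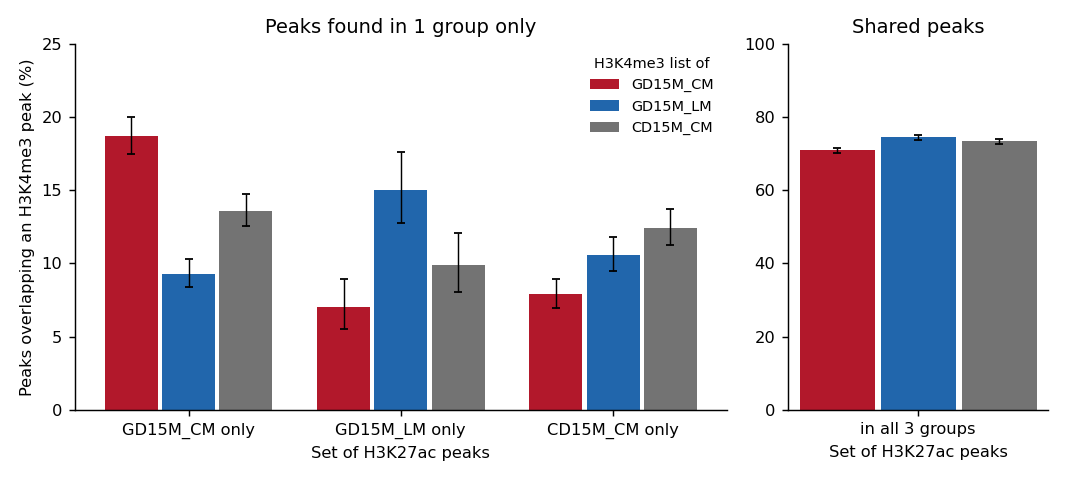
Percent of H3K27ac peaks that overlap an H3K4me3 peak (vertical axis) of GD15M_CM (red), GD15M_LM (blue) or CD15M_CM (grey), for peaks found in 1 group only (left) and in all 3 groups (right, another scale). Error bars are 95% Wilson intervals, and in each set found in 1 group the bar of that group is the tallest, for example 18.7% of the GD15M_CM-only regions.

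The H3K4me3 patterns of single regions gave the same order. Of the regions that met an H3K4me3 peak, 255 did so in all 3 groups, 152 in both circular muscle groups, 46 in both pregnant groups and 15 in GD15M_LM and CD15M_CM. The other 298 regions had it in 1 group only, which was GD15M_CM for 217 (72.8%), CD15M_CM for 65 and GD15M_LM for 16. A lead of the own group was not particular to the regions. Among GD15M_LM-only peaks the group was GD15M_LM in 49 of 56 such cases (87.5%). For CD15M_CM-only peaks it was CD15M_CM in 77 of 134 (57.5%). Among all GD15M_CM peaks with a fold of at least 4 the group was GD15M_CM in 32.7% of 1651 such cases. Among all H3K4me3 peaks found in 1 group only it was GD15M_CM in 25.9%, GD15M_LM in 30.8% and CD15M_CM in 43.3%. For the regions with a fold of at least 5 it was GD15M_CM in 53 of 60 cases. The 255 regions with H3K4me3 in all groups had it at a median percentile of 79.0 in GD15M_CM, 67.6 in GD15M_LM and 73.1 in CD15M_CM, where the percentile is the rank of the peak by fold within its own list. The highest percentile was in GD15M_CM for 119 of them, in CD15M_CM for 86 and in GD15M_LM for 50.

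The 217 regions with H3K4me3 in GD15M_CM only were mostly weak for this mark too, with a median H3K4me3 fold of 3.96 and 16 regions over a fold of 6. An H3K4me3 peak of another group lay within 1 kb of 70 of them (32.3%) and none lay within 10 kb of 53 (24.4%). The 5 with the highest H3K4me3 fold all lay beside H3K4me3 of the other groups. TNFAIP3, which encodes an inhibitor of NF-kappa B signaling, led with an H3K4me3 fold of 28.8 over an H3K27ac region of fold 4.31 (chr1:26484199-26485196), and the nearest H3K4me3 peak was 706 bp away in GD15M_LM and 2124 bp away in CD15M_CM. AP1B1, a clathrin adaptor subunit, followed with an H3K4me3 fold of 26.0 (chr14:46516809-46518024), and the H3K4me3 of the other groups ended 258 and 383 bp from this region. PARP9, an interferon-inducible ADP-ribosyltransferase, had an H3K4me3 fold of 22.2 (chr13:137963061-137963497), 608 bp from GD15M_LM and 607 bp from CD15M_CM peaks. The remaining pair were SYT13, a synaptotagmin, with an H3K4me3 fold of 14.0, and ARHGAP22, with 13.6. At the gene ends of TNFAIP3, AP1B1, PARP9 and SYT13 all 3 groups had H3K4me3, for TNFAIP3 with folds of 28.8 in GD15M_CM, 19.2 in GD15M_LM and 24.8 in CD15M_CM. At these genes the groups thus differed in where the H3K4me3 peaks ended and not in whether the gene had one.

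The 8 regions with the highest fold were inside or near 8 genes, and none of these regions overlapped an H3K4me3 peak of any group, as held for 78.6% of all regions. SLC9A2, a sodium and hydrogen exchanger of epithelial cells, held the region with the highest fold, 8.57, over 353 bp (chr3:51542284-51542636), and the nearest peak of another group was 29550 bp away, in GD15M_LM. This was the only GD15M_CM peak with a fold of at least 4 at this gene. ARID4B, a member of the SIN3 repressor complex, held a region of fold 7.42 (chr14:56031095-56031469), 53305 bp from the nearest CD15M_CM peak and 53917 bp from the nearest GD15M_LM peak. The regions of LOC102158121 and LOC110260243 had folds of 7.34 and 7.04. PITPNC1, a phosphatidylinositol transfer protein, had one of 7.25 over 1059 bp (chr12:13780206-13781264), with the nearest CD15M_CM peak at 5149 bp and the nearest GD15M_LM peak at 28346 bp. SNTB1, a syntrophin of the dystrophin complex, had one of 7.23 (chr4:18320523-18321700), which lay 81 bp from a CD15M_CM peak but 14435 bp from a GD15M_LM peak. IRF2, an interferon regulatory factor, had one of 7.17 (chr15:45606597-45607571) and FOXP1, a forkhead transcription factor, one of 6.89 (chr13:52885399-52886594). Over these 8 regions the nearest peak of another group was between 81 and 53305 bp away, and the pair with the highest folds were the farthest.

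Many regions had another close by. At the distance used for clusters, which is between 12 and 13 kb, another region lay beside 1235 regions (34.5%, interval 33.0 to 36.1%). By the same measure 10.8% of the 839 GD15M_LM-only peaks, 16.2% of the 2714 CD15M_CM-only peaks and 54.9% of the 17577 shared peaks had a neighbor of their own set, and the share rises with the number of peaks in a set. It was 19.9% of the 2339 regions left when GD15M_CM peaks less than 1 kb apart were joined first, and 13.8% of the 493 regions with a fold of at least 5. Peaks of the other lists were not joined, so the 19.9% has no counterpart for their sets. Joined at this distance, the regions formed 506 clusters, of which 367 held 2 regions, 92 held 3 and 47 held 4 or more. Of these, 17 held 5 or more, against 1 cluster of CD15M_CM-only peaks and 0 of GD15M_LM-only peaks.

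The largest cluster had 10 regions with folds from 4.03 to 7.25 within 49.0 kb of PITPNC1 (chr12:13746358-13795346). In this interval there were 25 H3K27ac peaks in GD15M_CM, 7 in CD15M_CM and 1 in GD15M_LM, with the highest folds at 7.33, 5.35 and 3.76. ZFAT, a zinc finger transcription factor, had 8 regions within 31.4 kb (chr4:6975198-7006591), where GD15M_CM had 16 peaks, CD15M_CM 4 and GD15M_LM 3. CNKSR3, a scaffold protein known from aldosterone signaling, had 7 regions within 26.8 kb (chr1:12319437-12346285), and its interval held 14 peaks in GD15M_CM, 5 in CD15M_CM and 4 in GD15M_LM. CDC14A, a protein phosphatase, had 7 regions within 26.5 kb (chr4:117736380-117762848), where GD15M_CM had 14 peaks, CD15M_CM 3 and GD15M_LM 0. DLG5, a scaffold protein of cell junctions, had 7 regions within 37.9 kb (chr14:80341490-80379427), and there the highest fold was in GD15M_LM, at 8.15, against 6.32 in GD15M_CM. In each of the 5 clusters GD15M_CM had the most peaks, as the choice of clusters favors. The clusters at PITPNC1, ZFAT, CNKSR3 and CDC14A had little H3K4me3 in GD15M_CM, with 0 to 3 peaks of a fold under 5.

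FOXA2, a transcription factor of uterine gland epithelium, was chosen after its values were seen. The cluster that it shares with the neighboring LOC110257410 had 6 regions, of which 1 was assigned to FOXA2 and 5 to LOC110257410, with folds from 4.01 to 4.95 within 16.8 kb (chr17:29986018-30002807), in which GD15M_CM had 10 H3K27ac peaks, CD15M_CM 3 and GD15M_LM 0. H3K4me3 in the same interval reached a fold of 24.8 in GD15M_CM, 15.3 in CD15M_CM and 9.29 in GD15M_LM. The map of the clusters at PITPNC1, CDC14A and FOXA2 sets these peaks side by side.

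**Figure D4:**
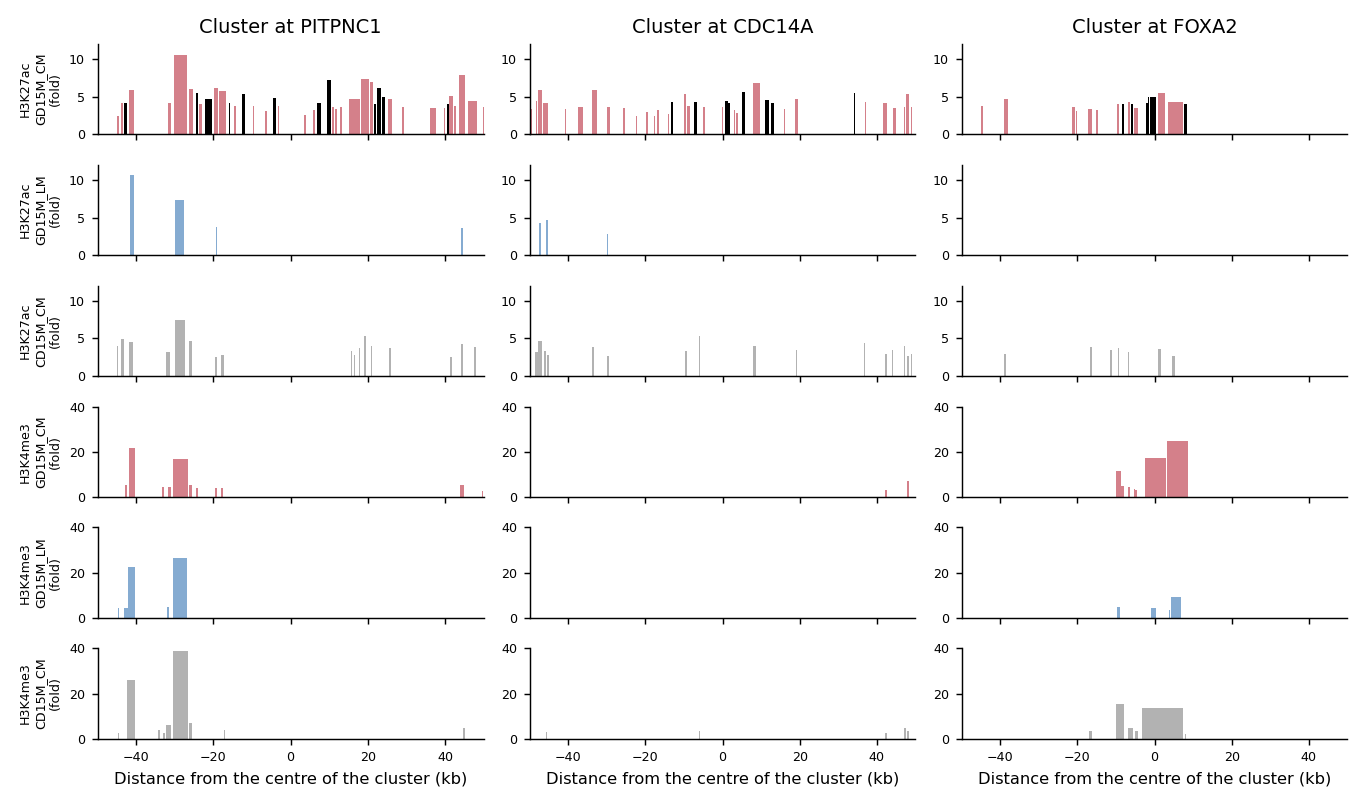
Peaks of the 6 lists around 3 clusters, with distance from the centre of the cluster in kb on the horizontal axis and MACS2 fold enrichment on the vertical axis (to 12 for H3K27ac, to 40 for H3K4me3). Bars span each peak, black bars are the GD15M_CM-only regions, and within the clusters the H3K27ac row of GD15M_LM is empty at FOXA2 and at CDC14A, whereas H3K4me3 of all 3 groups is drawn at FOXA2.

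A region was assigned to each gene whose body it overlapped, or otherwise to the nearest gene within 50 kb. This placed 3482 regions, left 95 without a gene, and gave 1859 of the 19484 RefSeq protein-coding genes at least 1 region (9.54%, against 2.76% with a GD15M_LM-only peak and 8.50% with a CD15M_CM-only peak), or 16.9% of the 10977 genes with any GD15M_CM peak of a fold of at least 4. Of these genes 1279 had 1 region, 510 had 2 to 4 and 70 had 5 or more. Long genes had regions more often, since 2.87% of genes under 10 kb and 24.0% of genes of 300 kb or more had one. Genes with 5 or more regions had a median length of 218.1 kb, against 20.7 kb for all.

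The 8 protein-coding genes with the most regions were PITPNC1 with 18 of its 34 GD15M_CM peaks of that strength, SNTB1 with 16 of 31, LRCH1 with 14 of 32, RAD51B with 11 of 73, SORL1 with 11 of 16, THADA with 11 of 48, CDC14A with 10 of 26 and JAZF1 with 10 of 51, and NEDD4L equaled the last with 10 of 27. They are long genes, from 169 kb for CDC14A to 709 kb for RAD51B. They differed in how much of their acetylation the groups had in common. RAD51B, a gene of homologous recombination repair, had 51 shared peaks beside its 11 regions, whereas SORL1, a sorting receptor of the endosome, had 0 shared peaks and SNTB1 had 3. No gene of the 8 had more than 1 GD15M_LM-only peak, and the most CD15M_CM-only peaks were the 5 of RAD51B.

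SORL1 had H3K27ac at its gene ends with a fold of 4.82 in GD15M_CM, 2.63 in CD15M_CM and no peak in GD15M_LM. Its H3K4me3 there was absent from the lists of both pregnant groups and had a fold of 8.68 in CD15M_CM. Inside the gene, the interval of 4 regions at chr9:48487167-48510916 held H3K4me3 of fold 22.99 in GD15M_CM and 19.04 in CD15M_CM and none in GD15M_LM. In another interval, of 5 regions (chr9:48606911-48619672), GD15M_CM had 4 H3K4me3 peaks up to a fold of 6.92 and the other groups 0. PITPNC1 had H3K27ac folds of 10.6 in GD15M_CM, 7.30 in GD15M_LM and 7.51 in CD15M_CM at its gene ends, but H3K4me3 folds of 16.8, 26.4 and 38.8 in the same order. SNTB1 had H3K4me3 folds of 32.5, 25.4 and 26.3. By percentile, H3K4me3 at the ends of PITPNC1 was at 83.0 in GD15M_CM, 91.1 in GD15M_LM and 98.98 in CD15M_CM. Over all 1711 genes with a region and H3K4me3 at a gene end in any group, the highest H3K4me3 percentile was in GD15M_CM for 36.6% (interval 34.4 to 39.0%), in CD15M_CM for 39.1% and in GD15M_LM for 24.3%. For GD15M_CM this was 30.1% over all 14435 such protein-coding genes, and 34.0% over the 8725 genes that had a strong GD15M_CM peak but no region.

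Genes of interferon response and antigen presentation often had regions. Of the 43 placed genes of this list 13 had one. This is 39.4% of the 33 with a GD15M_CM peak of a fold of at least 4 (interval 24.7 to 56.3%). Over all genes with such a peak the share was 16.9%. A GD15M_LM-only peak was found at 0 of the 43 and a CD15M_CM-only peak at 3. The shares over all protein-coding genes were 2.76% and 8.50%. With so few genes, of a median length of 10.4 kb against 20.7 kb for all, these counts set the list little apart. This list was drawn up with the study's account of these genes known and is not independent evidence. IFIT1, an interferon-induced protein that binds foreign RNA, had the strongest regions, with folds of 6.27 and 5.51 on chromosome 14 (chr14:101241596-101242114 and chr14:101240801-101241244). They also lie within the gene model of LIPA, which spans the IFIT genes and held 9 regions. SLA-DRB1, a class II antigen-presenting chain, had a region of fold 5.89 at its gene end (chr7:24913650-24914070), 19209 bp from the nearest GD15M_LM peak and 39419 bp from the nearest CD15M_CM peak, with H3K4me3 folds of 20.4 in GD15M_CM, 16.5 in GD15M_LM and 7.71 in CD15M_CM. SLA-DMA, which helps to load class II molecules, had a region of fold 5.74 (chr7:25136072-25137019) with H3K4me3 folds of 20.01, 11.2 and 9.38. GBP1, a guanylate-binding protein induced by interferon gamma, had one of 5.68 (chr4:127428538-127428919), over which H3K4me3 had folds of 26.2, 26.1 and 17.2.

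The other 9 were SLA-DRA, PSMB9, B2M, SLA-2, SLA-3, UBD, SLA-1, IFIT2 and NLRC5, with highest folds from 4.08 to 5.15. SLA-2 and SLA-3 shared 1 region, and reads of the SLA genes can be placed on the wrong copy because the genes are alike, so their values are uncertain. At the ends of SLA-DRA and SLA-DRB1 the highest H3K27ac peaks of GD15M_CM, with folds of 5.15 and 5.89, were regions themselves. By the rule no peak of the other groups overlapped these regions, and neither other group had an H3K27ac peak up to 3 kb from the ends of the 2 genes. At the ends of the genes of the whole list H3K4me3 was highest by percentile in GD15M_CM for 26 of the 40 genes with a peak, in GD15M_LM for 9 and in CD15M_CM for 5, and the median percentiles were 85.5, 69.3 and 72.1. Over all protein-coding genes with a peak the highest percentile was in GD15M_CM for 30.1%, in GD15M_LM for 28.0% and in CD15M_CM for 42.0%. The summed fold at the genes of the interferon list was 669 in GD15M_CM, 690 in GD15M_LM and 594 in CD15M_CM, on fold scales that may differ between the lists.

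Marker genes of other cell types were followed beside these genes. Of 37 T and NK cell genes 3 had a region (8.11%, beside 9.54% over all protein-coding genes). This is 33.3% of the 9 with a strong GD15M_CM peak (interval 12.1 to 64.6%), an interval that includes the 16.9% over all genes with such a peak. LEF1, a transcription factor of the Wnt pathway, had 3 regions up to a fold of 5.89, CD247, a chain of the T cell receptor complex, had 1 of 4.24, and GZMB, a protease of cytotoxic granules, had 1 of 4.12 lying 21280 bp outside the gene. At the ends of LEF1, H3K4me3 was highest in CD15M_CM, with a fold of 29.0 against 18.3 in GD15M_CM and 20.4 in GD15M_LM. H3K4me3 at the genes of this list was highest by percentile in GD15M_CM for 20 of 30 genes, in GD15M_LM for 8 and in CD15M_CM for 2. The shares over all protein-coding genes with a peak were 30.1%, 28.0% and 42.0% in the same order. At the T and NK cell genes the summed H3K4me3 fold was 225 in GD15M_CM, 222 in GD15M_LM and 167 in CD15M_CM. CD3E, CD3D and CD3G had H3K4me3 in all 3 groups, CD8A and CD8B in both pregnant groups only, and IL7R and GATA3 in none. Of 31 genes of other leukocytes 1 had a region (3.23%, beside 9.54% over all protein-coding genes), LCP1 with 2 up to a fold of 4.58. This is 20% of the 5 with a strong GD15M_CM peak (interval 3.62 to 62.4%), beside 16.9% over all genes. The H3K4me3 folds of the 31 genes summed to 236 (GD15M_CM), 311 (GD15M_LM) and 315 (CD15M_CM). The part that more T or NK cells in GD15M_CM tissue may have in the regions was not tested, and in such bulk tissue more cells of a type and more of the mark per cell cannot be told apart.

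Epithelial genes had regions in 6 of 25 cases, or 31.6% of the 19 with a strong GD15M_CM peak (interval 15.4 to 54.0%), beside 16.9% over all genes. CLDN7, a tight junction protein, had one of fold 5.14 at a gene end (chr12:52612533-52613014). H3K4me3 over this region had folds of 19.1 in GD15M_CM, 9.83 in GD15M_LM and 25.3 in CD15M_CM. Within 3 kb of either end of CLDN7 the highest H3K4me3 folds were 35.4, 9.83 and 25.3 in the same order. EHF, an epithelial transcription factor, had 2 up to 4.79, and LTF, the lactoferrin gene, had 1 of 4.32 without H3K4me3 in any group. EPCAM and FOXA2 had 1 each. H3K4me3 over the list was highest by percentile in GD15M_CM for 16 of 24 genes, in CD15M_CM for 8 and in GD15M_LM for 0, with summed folds of 349, 360 and 183. The shares of highest percentile over all protein-coding genes with a peak were 30.1%, 42.0% and 28.0% in the same order. None of the 25 had a CD15M_CM-only or GD15M_LM-only peak, where the shares over all protein-coding genes were 8.50% and 2.76%. With so few genes, of a median length of 12.6 kb against 20.7 kb for all, these absences set the list little apart. The median percentile of H3K4me3 over the list was 79.4 in GD15M_CM, 56.4 in GD15M_LM and 75.7 in CD15M_CM. SPP1, a secreted glycoprotein of uterine epithelium, had H3K4me3 in GD15M_LM and CD15M_CM but not in GD15M_CM. The part of epithelial cells left on the circular muscle in these regions was not tested.

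Smooth muscle genes had regions about as often, in 9 of the 27 with a strong GD15M_CM peak (33.3%, interval 18.6 to 52.2%, beside 16.9% over all genes). None of these regions overlapped an H3K4me3 peak of any group, as also held for 1 region each of IFIT1 and SLA-DRA in the interferon list. The same was true of 78.6% of all regions and of 88.3% of those in gene bodies. KCNMA1, a calcium-activated potassium channel that restrains contraction, had 5 up to a fold of 4.75, SYNPO2, an actin-binding protein, had 2 up to 4.55, and MEF2C, a muscle transcription factor, 1 of 4.36. PLCB4, SMTN, ITGA8, TPM1 and MYH11 had 1 each, which lay 19149 bp outside the gene for SMTN and 38594 bp outside it for ITGA8. Shared peaks outnumbered the regions at all 9, for example 16 to 1 at SMTN and 18 to 5 at KCNMA1. Of the 29 placed genes 10 had a GD15M_LM-only peak and 9 a CD15M_CM-only peak, where the shares over all protein-coding genes were 2.76% and 8.50%. The median length of the 29 genes was 27.8 kb, against 20.7 kb for all. H3K4me3 at these genes was highest by percentile in GD15M_LM for 18, in CD15M_CM for 9 and in GD15M_CM for 0. The shares over all protein-coding genes with a peak were 28.0%, 42.0% and 30.1% in the same order. At KCNMA1 H3K4me3 had a fold of 12.7 in GD15M_CM, 33.2 in GD15M_LM and 13.2 in CD15M_CM.

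Of 34 genes of steroid and prostaglandin signaling 5 had regions, which is 26.3% of the 19 with a strong GD15M_CM peak (interval 11.8 to 48.8%) beside 16.9% over all genes. ESR1, an estrogen receptor, had 3 up to a fold of 4.93 among 22 GD15M_CM peaks, and PGR, the progesterone receptor, had 1 of 4.16. PTGER2 and PTGDR, receptors for prostaglandins E2 and D2, shared a region of fold 4.93 (chr1:182005408-182005953), and PTGER2 had 2 more, 21778 and 34016 bp outside the gene. FKBP5, a steroid-induced chaperone of steroid receptors, had 3 up to 4.71. All of these regions were without H3K4me3 in any group, as were 78.6% of all regions. Endothelial genes had regions in 3 of 26 cases, or 33.3% of the 9 with a strong GD15M_CM peak (interval 12.1 to 64.6%). SOX17, an endothelial and uterine transcription factor, had 3 regions from 13688 to 18339 bp outside the gene up to a fold of 5.12, and FLI1 had 1 of 4.35 and TEK 1 of 4.16. The stroma and fibroblast list had 1 of 26, at VIM, with a fold of 4.05. This is 6.67% of the 15 with a strong GD15M_CM peak (interval 1.19 to 29.8%), beside 16.9% over all genes. No region was found at the 14 genes of neurons and glia or the 7 of mesothelium, of which only 4 and 1 had any GD15M_CM peak of a fold of at least 4. The shares of the lists overlap in their intervals, as the plot of the gene lists shows, and no test between lists was made.

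**Figure D5:**
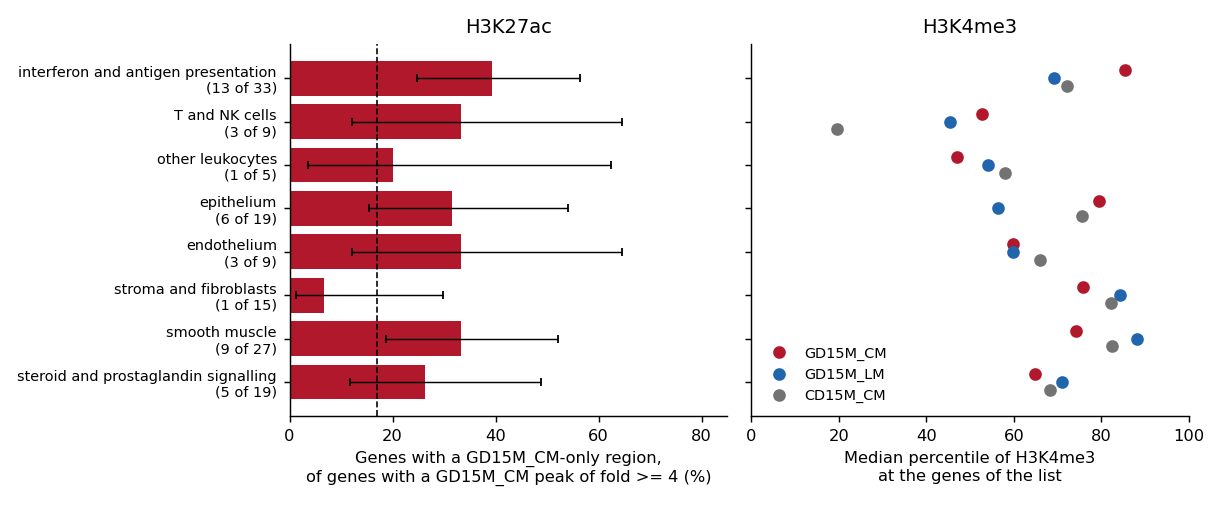
Left, percent of the genes of each list with a GD15M_CM H3K27ac peak of a fold of at least 4 that had a GD15M_CM-only region (horizontal axis, counts in the labels), with 95% Wilson intervals and the share over all genes, 16.9%, as a dashed line. Right, median percentile of H3K4me3 at the genes of each list in the 3 groups, where GD15M_CM is highest for the interferon list (85.5), the T and NK cell list and the epithelium list. Lists with under 5 such genes are left out.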

How the data were processed

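Reads were aligned by the authors on the pig genome (Sus scrofa 11.1) using BWA 0.7.17-r1188. They filtered duplicates and poorly mapped reads (Picard 2.8.3, SAMtools 1.9), pooled both gilts of a group and called peaks against IgG with MACS2 2.2.6 (versions from the submitters' processing notes). The deposited fold enrichment is the authors' MACS2 ratio of a peak over its local background, and the authors' lists also give −log10 p and −log10 q, of which only −log10 p was used, to rank peaks in 1 alternative. Headers of both −log10 columns were damaged, and their meaning follows the order in which MACS2 writes its columns. Folds are given as deposited. Since their scale can differ between lists, groups were ranked at genes by the percentile of a peak within its list, and folds or sums of folds of several groups are values side by side.

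Distances and overlaps were computed with NumPy 2.4.6 and pandas 2.3.3 under Python 3.11.15, intervals with statsmodels 0.14.6 and plots with Matplotlib 3.10.9, and the code gave the right answer on simulated peaks. Genes were the 28073 RefSeq genes of Sscrofa11.1 on chromosomes 1 to 18 and X. The level of a mark at a gene is its highest peak up to 3 kb from either end, and 0 where there is none. Regions up to 12.5 kb apart formed a cluster. Depth per gilt is unknown from the lists, no test between groups was made from the pooled lists, the signal of single gilts was not used here, and 18 libraries, IgG included, stand behind the 6 lists.

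The members and gene lists were chosen with earlier results of these data known. Named were the 8 regions of highest fold, the 8 protein-coding genes with the most regions (symbols starting with LOC left out), the 5 largest clusters, the 5 regions of highest H3K4me3 fold with H3K4me3 in GD15M_CM only, the genes of 10 lists that had a region (values for up to 4 a list) and the 3 regions on each side of the threshold. Alternatives changed the fold threshold, the distance to other peaks, the joining of peaks, the number of peaks per list, the gene window, the H3K4me3 overlap and the cluster distance. Sequences and motif shares were not analysed here. Some genes that the naming rule picks are not reported here, though the counts of their lists include them.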

Additional observations from a re-analysis of the deposited data

Results flagged for a closer look

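On unplaced scaffolds, which the rule leaves out, 26 of 259 GD15M_CM H3K27ac peaks with a fold of at least 4 met no H3K27ac peak of the other groups, on 14 scaffolds and with a highest fold of 5.70. They are given because no comparison of the report uses these sequences. On chromosome Y it was 4 of 10 such peaks.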

How the results depend on the processing

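Of 53 alternative values for 8 results, 10 stayed within the interval of the value reported (for counts, within 1.5 times) and 43 did not, so the size of most shares follows the rule. In each of the 9 settings of the H3K4me3 shares the order GD15M_CM, CD15M_CM, GD15M_LM held. With a fold of at least 3 there were 15048 regions at 5252 genes, 59.6% had another within the cluster distance, 33.0% had a peak of another group within 1 kb, 23.1% were at a gene end, and 15.4% met H3K4me3 of GD15M_CM. With a fold of at least 5 there were 493 regions at 347 genes, and these shares were 13.8%, 27.8%, 17.4% and 23.5%, with 8.11% for H3K4me3 of GD15M_LM. Without peaks of the other groups within 1 kb, 28.5% were clustered, 15.6% were at a gene end, and H3K4me3 met 13.4% in GD15M_CM, 4.55% in GD15M_LM and 7.94% in CD15M_CM. Joining peaks less than 1 kb apart in the GD15M_CM list only left 2339 regions, with 19.9% clustered, 7.01% within 1 kb of another group, 15.3% at a gene end and H3K4me3 on 13.3%, 5.002% and 7.87%. Taking the 57010 peaks of lowest p from each list gave 4650 regions at 2273 genes. Of these regions 39.7% were clustered, 27.6% lay within 1 kb of another group and H3K4me3 was on 20.1%, 10.6% and 16.0%. At a gene end were 7.94% with a window of 1 kb, 16.9% with protein-coding genes only and 19.5% by the centre. H3K4me3 in GD15M_CM, GD15M_LM and CD15M_CM met 14.8%, 7.32% and 10.8% with at least 50% of the region covered, 13.4%, 7.44% and 9.70% with H3K4me3 peaks of a fold of at least 4, and 16.4%, 7.55% and 11.3% by the centre base, a setting chosen after seeing the data. Within 50 kb 56.4% had another region. The causes of these shifts were not tested.

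No paired analysis was possible because the gilts were pooled before peaks were called. For the same reason no gilt was left out. Motif shares and their alternative were not run, since no genome sequence was used here. Absence of a peak says that a list holds none at that place, not that the mark was absent, and at the weak folds of most regions a peak of the other groups just under its own threshold cannot be told apart from none. The gene table has no strand, so a gene end can be either end.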

Other observations

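At endothelial genes, of which 3 had a region, H3K4me3 was highest by percentile in CD15M_CM for 17 of 23 genes, in GD15M_LM for 4 and in GD15M_CM for 2. The shares over all protein-coding genes with a peak were 42.0%, 28.0% and 30.1% in the same order. By another measure, the presence of a peak at the gene ends, H3K4me3 was found at 22 endothelial genes in GD15M_CM, 23 in GD15M_LM and 23 in CD15M_CM. H3K27ac was present at 17 in GD15M_CM, 11 in GD15M_LM and 12 in CD15M_CM. At stroma and fibroblast genes, which had a region in 1 case, both marks were lowest in GD15M_CM, with median percentiles of 75.8, 84.4 and 82.2 for H3K4me3 and of 73.0, 85.2 and 92.5 for H3K27ac (GD15M_CM, GD15M_LM and CD15M_CM). No comparison of these values was tested.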
